A study of Rattus norvegicus with 6 samples.

Results

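The Reg lectins and Paneth cell antimicrobials described here are 10 genes, *Reg1a*, *Reg3a*, *Reg3b*, *Reg3g*, *Reg4*, *Lyz2*, *Pla2g2a*, *Defa5*, *Defb1* and *Lcn2*. They were listed by family and function, and each was read from its brightest transcript cluster (the array's unit of measurement for 1 transcript). All 10 were found among the 18166 genes that the platform's probe table names with exactly 1 symbol. Intestinal RNA came from male Sprague Dawley pups at weaning, 3 weeks of age, with 3 pups in the HFD-sitagliptin group, 3 in the HFD group and 1 Affymetrix rat gene array per pup. Dams of both groups ate the high-fat diet from before mating, and those of the HFD-sitagliptin group also received sitagliptin, an oral inhibitor of dipeptidyl peptidase 4, through pregnancy and lactation. The sources used here do not say which part of the intestine was taken, and pups of dams on a normal diet were not analysed here.

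Reg proteins are small secreted C-type lectins. In mice, *Reg3b* and *Reg3g* are made by enterocytes and Paneth cells, are induced by bacteria through Myd88 and by IL-22 through Stat3, and keep bacteria away from the epithelium. Paneth cells sit at the base of small intestinal crypts and release granules that hold lysozyme, secretory phospholipase A2 and alpha-defensins, and they are rare in the healthy colon. Paneth cells of rats and mice mature in the weeks around weaning, the age studied here.

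Values are the deposited log2 expression values, in which a difference of 1 is a factor of 2, and they are compared between arrays for 1 gene at a time because probes of different genes differ in brightness. As a mark of background, the 95th percentile of the mean levels of 1185 olfactory receptor genes, which are seldom transcribed in gut, was 4.44. The mean levels of 7 of the 10 genes lay above it. The array of HFD-sitagliptin replicate 1 stood apart, with correlations of 0.926 to 0.940 to the other arrays across genes, which are not independent replicates. Over 13 brush border markers, all above background, the mean level was 5.86 in that array, 9.50 and 10.67 in HFD-sitagliptin replicates 2 and 3, and 10.30 to 10.92 in HFD arrays. The brightest of them, *Fabp1*, *Fabp2*, *Anpep* and *Vil1*, were each lowest in that array, and *Si*, sucrase-isomaltase, was at 2.72 there, at 11.39 and 11.94 in HFD-sitagliptin replicates 2 and 3, and at 12.07 to 12.49 in HFD arrays. Over 12 colon markers, of which 6 were above background, the mean level was 6.46 in that array, 5.46 and 5.86 in HFD-sitagliptin replicates 2 and 3, and 5.51 to 5.59 in HFD arrays. The colon markers did not move together. *Hoxa13* was at 6.53 in that array and at 3.35 to 3.70 in the other 5, with a mean level below the background mark. *Car1* was at 12.41 in that array, against 3.41 to 4.04 in the other 5, and *Lypd8* and *Slc26a3* were highest there, while *Aqp4* was lowest there (4.72), *Slc37a2* was at 4.97, near its 4.70 in HFD-sitagliptin replicate 2, against 7.38 to 8.52 in HFD arrays, and *Muc4* was at 7.11, within the range of the other arrays. Over 6 smooth muscle markers, with *Tagln*, *Des*, *Actg2* and *Myh11* the brightest, the mean level was 10.54 in that array, 8.65 and 8.75 in HFD-sitagliptin replicates 2 and 3, and 8.72 to 9.24 in HFD arrays. *Si*, *Car1*, *Hoxa13* and *Aqp4* were singled out with their values in view. Values without that array are given beside results that it moves. In whole tissue, fewer cells of a type and less RNA per cell cannot be told apart.

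*Reg3b* and *Reg3g* varied together over the arrays. *Reg3b* had values of 8.25, 12.67 and 9.63 in HFD-sitagliptin replicates 1, 2 and 3, against 12.85, 12.19 and 12.53 in the HFD arrays. HFD-sitagliptin replicates 1 and 3 lay below all HFD arrays and replicate 2 lay among them, so the groups overlap. The means were 10.18 ± 2.26 in HFD-sitagliptin pups and 12.52 ± 0.33 in HFD pups (SD, n = 3 each). The log2 fold change, HFD-sitagliptin minus HFD, was -2.34 (standard error 1.04, limma adjusted p = 0.718). *Reg3g*, the lectin that binds peptidoglycan of Gram-positive bacteria in mice, had values of 9.83, 13.04 and 9.84 in HFD-sitagliptin arrays, against 13.27, 12.45 and 12.19 in HFD arrays. The same pair of HFD-sitagliptin arrays was low. Its log2 fold change was -1.73 (standard error 0.88, limma adjusted p = 0.718). Relative to the HFD mean, *Reg3b* was at -4.27 and *Reg3g* at -2.81 in HFD-sitagliptin replicate 1. In HFD-sitagliptin replicate 3 the differences from that mean were nearly equal, -2.90 for *Reg3b* and -2.80 for *Reg3g*. The study called a gene changed when it differed by 1.5-fold or more at an unadjusted p under 0.05, and neither gene passed this threshold. Without HFD-sitagliptin replicate 1 the log2 fold changes were -1.37 for *Reg3b* and -1.20 for *Reg3g*.

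In the RefSeq annotation of the rat genome GRCr8, *Reg3b*, *Reg3a*, *Reg1a* and *Reg3g* lie in this order on chromosome 4. Promoter sequences were found for 8 of the 10 genes, all but *Defa5* and *Defb1*. The 250 bases before the start of these 4 neighbours (the first of 2 listed windows for *Reg3a*) are shown because *Reg3b* and *Reg3g* moved together, *Reg1a* had a profile of its own and *Reg3a* was at background. Capitals mark matches to the motif of the TATA box, TATAAA, to that of STAT factors, TTCNNNGAA, and to that of TCF factors, CTTTGAT, searched on both strands.
*Reg3b* (chr4:112419526-112419775, plus strand): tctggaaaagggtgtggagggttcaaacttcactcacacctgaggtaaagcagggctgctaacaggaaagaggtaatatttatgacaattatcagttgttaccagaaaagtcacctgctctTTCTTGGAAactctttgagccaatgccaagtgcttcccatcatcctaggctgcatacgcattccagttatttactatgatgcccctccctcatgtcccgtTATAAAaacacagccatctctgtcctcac
*Reg3g* (chr4:112484739-112484988, minus strand): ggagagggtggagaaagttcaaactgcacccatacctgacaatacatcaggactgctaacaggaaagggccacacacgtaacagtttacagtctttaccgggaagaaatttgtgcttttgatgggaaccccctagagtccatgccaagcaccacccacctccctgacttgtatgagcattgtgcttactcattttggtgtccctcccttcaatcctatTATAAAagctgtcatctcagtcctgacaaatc
*Reg1a* (chr4:112450216-112450465, plus strand): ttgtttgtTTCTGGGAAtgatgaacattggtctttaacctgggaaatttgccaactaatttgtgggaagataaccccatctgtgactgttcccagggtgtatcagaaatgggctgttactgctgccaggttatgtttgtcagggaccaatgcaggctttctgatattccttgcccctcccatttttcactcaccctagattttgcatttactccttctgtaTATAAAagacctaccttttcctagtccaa
*Reg3a* (chr4:112430147-112430396, plus strand): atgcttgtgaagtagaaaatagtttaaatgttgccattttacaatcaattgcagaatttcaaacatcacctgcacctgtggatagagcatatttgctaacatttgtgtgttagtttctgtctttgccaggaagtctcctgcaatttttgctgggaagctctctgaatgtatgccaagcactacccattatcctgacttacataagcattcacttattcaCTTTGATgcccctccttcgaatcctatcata
TATAAA ends 24 bases before the start in *Reg3b* and *Reg1a* and 27 bases before it in *Reg3g*. This motif was found in 12.9% of 33469 rat promoter windows of this length. TTCNNNGAA was found once in *Reg3b* (bases 129 to 121 before the start) and once in *Reg1a* (bases 242 to 234), and in 7.67% of all windows. CTTTGAT was found in *Reg3a* and in 3.15% of all windows. None of the 3 motifs was found in these windows of *Reg4*, *Lyz2*, *Pla2g2a* and *Lcn2*. *Reg3b* and *Reg3g* shared 165 aligned bases, more than any of the other 27 pairs of these 8 promoters (118 to 153). The pairs of *Reg3a* with *Reg3g* (153) and *Reg3b* (151) came next. Only the first listed window of *Reg3a* was aligned, so this ranking holds for the windows used. Related Reg genes and a *Reg3b* pseudogene in the same stretch could share signal on the array, which was not tested.

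**Figure D1:**
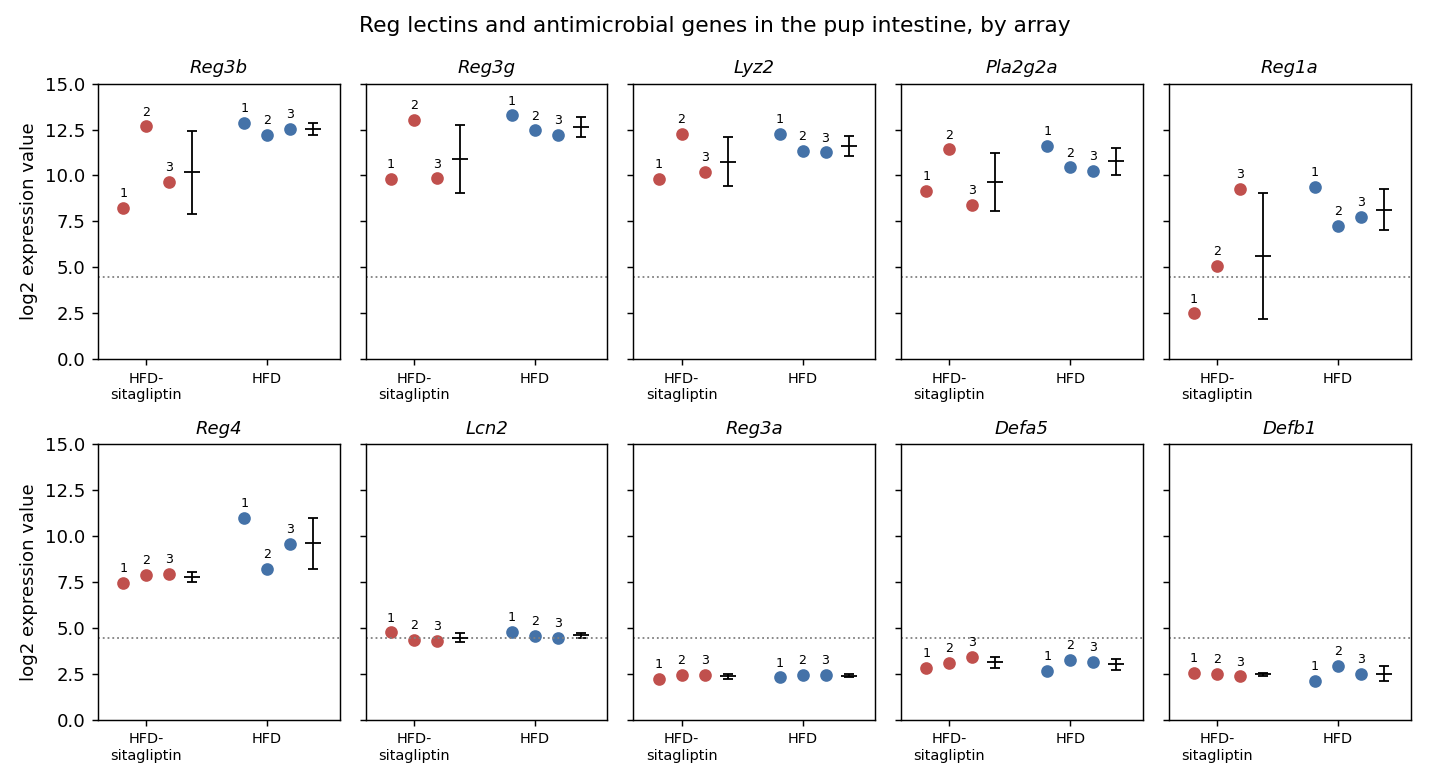
Log2 expression value (y axis) of the 10 genes in HFD-sitagliptin (red, left) and HFD (blue, right) pups, 1 point per array with its replicate number; black marks are means with SD (n = 3 each), and the dotted line is the background mark of 4.44. *Reg3b*, *Reg3g*, *Lyz2* and *Pla2g2a* are low in HFD-sitagliptin replicates 1 and 3 and not in replicate 2, *Reg4* is below every HFD array in all HFD-sitagliptin arrays, and *Reg3a*, *Defa5* and *Defb1* lie below the line in all arrays.

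The Paneth granule enzymes had the same profile as these lectins. *Lyz2*, lysozyme, had values of 9.79, 12.26 and 10.18 in HFD-sitagliptin arrays, against 12.26, 11.35 and 11.25 in HFD arrays. *Pla2g2a*, the secretory phospholipase A2 of Paneth cells, had values of 9.14, 11.42 and 8.41 in HFD-sitagliptin arrays, against 11.60, 10.44 and 10.25 in HFD arrays. For both genes HFD-sitagliptin replicates 1 and 3 lay below every HFD array and replicate 2 lay above HFD replicates 2 and 3. The log2 fold changes were -0.87 for *Lyz2* (standard error 0.66, limma adjusted p = 0.729) and -1.11 for *Pla2g2a* (standard error 0.79, adjusted p = 0.720). Neither passed the threshold, and with HFD-sitagliptin replicate 1 left out the values were -0.40 and -0.85. Macrophages also make lysozyme. The mean level of 12 macrophage markers was 6.38 to 6.90 in HFD-sitagliptin arrays and 6.21 to 6.32 in HFD arrays. All 12 were above background and 2, *Itgam* and *Adgre1*, were higher past the threshold. Of all 18166 genes, 128 were higher past it. Without HFD-sitagliptin replicate 1, *Itgam* passed (0.66) and *Adgre1* did not (0.42, against 0.67 with it). *Ctss*, a lysosomal protease and the brightest of these markers, was at 9.45 to 9.95 in HFD-sitagliptin arrays and at 9.69 to 9.91 in HFD arrays. The complement genes *C1qa*, *C1qb* and *C1qc* were next in brightness, with log2 fold changes of 0.41, 0.51 and 0.50, which did not pass. The part of macrophages in the *Lyz2* signal was not tested.

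The alpha-defensins on the array gave a second reading of Paneth cells. Of those above background, *Defa6*, *Defa8*, *Defa9* and *Defa24* shared a profile and *Defa7* did not. *Defa6* had values of 5.0, 12.82 and 9.75 in HFD-sitagliptin arrays, against 12.04, 11.38 and 11.18 in HFD arrays. *Defa8* had values of 8.43, 12.57 and 10.44 in HFD-sitagliptin arrays, against 12.30, 11.79 and 11.55 in HFD arrays. *Defa9* and *Defa24*, named after their values were seen, were at 3.03 and 4.29 in HFD-sitagliptin replicate 1, both below the background mark. HFD-sitagliptin replicate 2 was the highest of the 6 arrays and replicate 3 the lowest but for replicate 1 in each of these 4 defensin genes. In replicate 3 their differences from the HFD mean ran from -1.78 to -0.81, beside -1.44 for *Lyz2*, -2.35 for *Pla2g2a* and -2.90 for *Reg3b*. *Mmp7*, the protease that activates alpha-defensin precursors in mice, was at 3.81, 8.61 and 5.15 in HFD-sitagliptin arrays, against 7.47, 6.55 and 6.39 in HFD arrays. In HFD-sitagliptin replicate 1, *Lyz2*, *Pla2g2a* and *Defa8* were thus well above background. *Defa6*, at 5.0, was above the mark by less, and *Defa9*, *Defa24* and *Mmp7* were below it. Over 11 measured Paneth cell markers, of which 7 were above background, the mean level was 5.89, 8.20 and 6.81 in HFD-sitagliptin arrays and 7.54 to 8.08 in HFD arrays, and 0 passed the threshold. *Itln1*, a marker of this list above background, went the other way. It was at 11.53, 7.49 and 8.78 in HFD-sitagliptin arrays, highest in replicate 1 and lowest in replicate 2, against 10.05, 8.57 and 9.18 in HFD arrays. The log2 fold change was -2.35 for *Defa6*, -1.40 for *Defa8*, -1.96 for *Defa24*, -3.29 for *Defa9* and -0.95 for *Mmp7*. Without HFD-sitagliptin replicate 1 it was -0.25 for *Defa6*, -0.38 for *Defa8*, 0.37 for *Defa24*, -0.25 for *Defa9* and 0.07 for *Mmp7*. The 11 markers include *Lyz2*, *Pla2g2a* and *Defa5* of the 10 genes, so they are not separate from those genes. Their median was -0.87, the value of *Lyz2* itself. Without HFD-sitagliptin replicate 1 it was -0.16, the value of *Defa11*, whose mean level was below the background mark. Alpha-defensin genes are close copies of each other, so a cluster may pick up more than 1 of them.

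**Figure D2:**
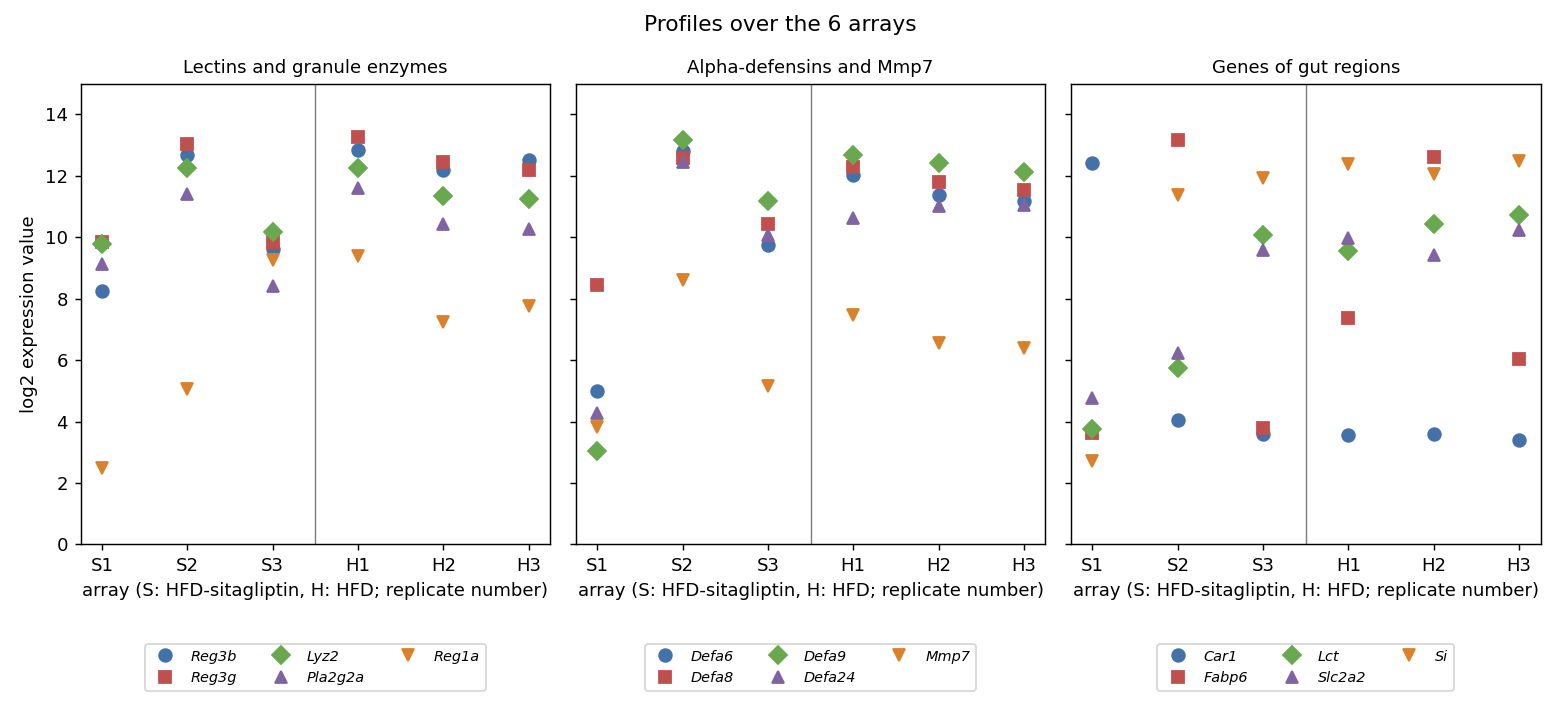
Log2 expression value (y axis) in the 6 arrays (x axis, S1 to S3 are HFD-sitagliptin replicates and H1 to H3 HFD replicates) for lectins and granule enzymes (left), alpha-defensins and *Mmp7* (middle) and genes of gut regions (right), with levels to be read along 1 gene. S1 has high *Car1* and no *Si* signal above background, *Fabp6* is high in S2 and H2, and *Reg1a* is low in S1 and S2, as are *Lct* and *Slc2a2*.

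*Reg1a*, known as pancreatic stone protein and made by acinar cells of the pancreas and by regenerating epithelium, had another profile. Its values were 2.48, 5.05 and 9.27 in HFD-sitagliptin arrays, against 9.39, 7.25 and 7.76 in HFD arrays. HFD-sitagliptin replicate 1 was below background, replicate 2 was below all HFD arrays and replicate 3 was second only to HFD replicate 1. The log2 fold change was -2.53 (standard error 1.64, limma adjusted p = 0.718), and -0.97 (standard error 1.32) without HFD-sitagliptin replicate 1. The means were 5.6 ± 3.43 in HFD-sitagliptin pups and 8.13 ± 1.12 in HFD pups (SD, n = 3 each). *Lct*, the lactase of the proximal small intestine, had values of 3.75, 5.74 and 10.07 in HFD-sitagliptin arrays, against 9.54, 10.43 and 10.71 in HFD arrays. *Slc2a2*, a glucose transporter of the same region, had values of 4.77, 6.24 and 9.60 in HFD-sitagliptin arrays, against 9.99, 9.41 and 10.24 in HFD arrays. *Fabp6*, the bile acid binding protein of the ileum, was at 13.16 in HFD-sitagliptin replicate 2 and at 12.62 in HFD replicate 2, and at 3.61 to 7.36 in the other arrays. Of 9 genes listed as ileum markers, all above background, *Enpp7*, an alkaline sphingomyelinase of the brush border, was the one past the threshold. It was at 5.12, 7.86 and 6.54 in HFD-sitagliptin arrays, against 8.99, 10.84 and 10.61 in HFD arrays (log2 fold change -3.64, limma adjusted p = 0.718), and passed without HFD-sitagliptin replicate 1 (-2.95). The 9 listed genes had a mean level of 5.41, 9.15 and 6.68 in HFD-sitagliptin arrays, against 7.70, 8.96 and 7.82 in HFD arrays. The bile acid transporter subunits *Slc51a* and *Slc51b*, the brightest of them, were lowest in HFD-sitagliptin replicate 1, and the bile acid receptor gene *Nr1h4* was highest there. These listed genes did not move together. *Gata4* was at 4.81, 6.23 and 7.90 in HFD-sitagliptin arrays, against 8.28, 7.38 and 7.86 in HFD arrays. In HFD-sitagliptin replicate 2 it lay below every HFD array, while *Fabp6* was highest there. Whether *Gata4* marks ileum was not tested, and its values are part of the mean level of the 9 listed genes. *Lct* and *Slc2a2* were lower past the study's threshold with all arrays (log2 fold changes -3.71 and -3.01) and did not pass without HFD-sitagliptin replicate 1 (-2.32 and -1.96). They were singled out with their values in view, and their part in the *Reg1a* profile was not tested.

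Since *Reg1a* is abundant in pancreas, acinar markers were read beside it. Of 13 acinar markers other than *Reg1a*, 5 were above background, and the mean level was 4.09 to 4.21 in HFD-sitagliptin arrays and 4.05 to 4.30 in HFD arrays. The log2 fold change was positive for 10 of the 13, with a median of 0.14, and negative for 48.1% of all genes. The 10 include markers not told from background. *Cela1*, *Ctrb1*, *Cela2a* and *Ctrc*, digestive proteases above background, had values of 0.07, 0.32, 0.14 and 0.26, and none of these passed. *Amy2a3*, a pancreatic amylase, was at 3.71, 3.71 and 5.16 in HFD-sitagliptin arrays, against 6.0, 5.44 and 5.45 in HFD arrays, and was lower past the study's threshold (log2 fold change -1.44, limma adjusted p = 0.718, and -1.20 without HFD-sitagliptin replicate 1, which also passed). *Prss1*, trypsinogen, was lower past it too, with means of 2.88 in HFD-sitagliptin arrays and 3.88 in HFD arrays, at a mean level not told from background. The acinar lipase *Pnlip*, the procarboxypeptidase *Cpa1* and the elastase *Cela3b* had mean levels below the background mark.

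*Reg4*, which marks deep crypt secretory cells of the mouse colon, was the only one of the 10 genes past the study's threshold, which 1.30% of all genes passed as lower. It had values of 7.47, 7.90 and 7.95 in HFD-sitagliptin arrays, against 11.02, 8.20 and 9.60 in HFD arrays. The groups do not overlap, though HFD replicate 2 lay close above HFD-sitagliptin replicate 3. Of all genes, 5.54% had lower values in every HFD-sitagliptin array than in any HFD array. *Reg4* averaged 7.77 ± 0.27 in HFD-sitagliptin pups and 9.60 ± 1.41 in HFD pups (SD, n = 3 each), a 3.56-fold lower level in HFD-sitagliptin pups. The log2 fold change was -1.83 (standard error 0.66, limma adjusted p = 0.718). HFD replicate 1 had the highest value, and without that array the log2 fold change was -1.12 and no longer passed. Leaving out HFD replicate 3 or any single HFD-sitagliptin array also lost the call (log2 fold changes -1.68 to -1.92), as did the methods' t-test. *Spink4*, a secreted protease inhibitor of goblet cells, was at 7.56, 7.79 and 7.29 in HFD-sitagliptin arrays, against 11.24, 8.15 and 8.22 in HFD arrays, and HFD replicate 1 was the highest there as well. The mean level of 9 goblet cell markers was 9.08 to 9.85 in HFD-sitagliptin arrays and 9.18 to 10.08 in HFD arrays, with 8 of 9 above background and 0 past the threshold. The brightest, *Zg16*, *Clca1*, *Agr2* and *Fcgbp*, had log2 fold changes of -0.05, -0.15, -0.06 and 0.08.

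The 4 remaining genes were at or near background. *Reg3a* was at 2.22 to 2.46 in HFD-sitagliptin arrays and at 2.31 to 2.46 in HFD arrays, and 4 of the 6 arrays had the same value to 4 decimals. *Defa5* was at 2.85 to 3.43 in HFD-sitagliptin arrays and at 2.68 to 3.25 in HFD arrays. *Defb1*, a beta-defensin of epithelia, was at 2.36 to 2.55 in HFD-sitagliptin arrays and at 2.10 to 2.91 in HFD arrays. The log2 fold changes of these 3 genes, -0.03, 0.09 and -0.02, are not told from background. The *Defa5* cluster did not share the profile of *Defa6*, *Defa8*, *Defa9* and *Defa24*. *Lcn2*, a siderophore-binding protein of neutrophils and inflamed epithelium, had values of 4.76, 4.37 and 4.29 in HFD-sitagliptin arrays, against 4.77, 4.56 and 4.47 in HFD arrays. Its mean level of 4.54 was just above the background mark, and its log2 fold change was -0.12 (standard error 0.17, limma adjusted p = 0.823). Of 12 neutrophil markers 2 were above background, and the mean level was 3.63 to 3.75 in HFD-sitagliptin arrays and 3.59 to 3.72 in HFD arrays. *S100a8*, *S100a9*, *Mpo* and *Elane*, which define neutrophils, had mean levels below the background mark, and the 2 above it were *Fcnb* and *Mmp9*.

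Across the 10 genes, 1 passed the study's threshold, against 2.01% of all genes in either direction, and 9 had a negative log2 fold change, against 48.1% of all genes. Among the 9, *Reg3a* (-0.03) and *Defb1* (-0.02) are not told from background, and they were negative in 11 and 10 of 13 alternatives. The median log2 fold change was -0.99 over the 10 genes and 0.01 over all genes. A total of 6 of the 10 spanned at least 2 log2 units over the 6 arrays, against 3.62% of all genes. None of the 10 had a limma adjusted p under 0.05, and this held for all genes tested (1040 had an unadjusted p under 0.05, and the methods' t-test after Benjamini-Hochberg adjustment also gave 0). Which genes passed turned on single arrays of both groups. With HFD replicate 1 or HFD replicate 3 left out, 0 of the 10 passed, against 239 and 487 of all genes in either direction. Without HFD-sitagliptin replicate 1, 0 of the 10 passed, against 0.903% of all genes lower in that fit, and the median was -0.62. Without HFD-sitagliptin replicate 2, 4 passed as lower, against 1.55% of all genes. They were *Reg3b* (log2 fold change -3.58), *Reg3g* (-2.80), *Pla2g2a* (-1.99) and *Lyz2* (-1.63). Without HFD-sitagliptin replicate 3, only *Reg1a* passed (-4.37), against 2.99% of all genes lower in that fit.

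**Figure D3:**
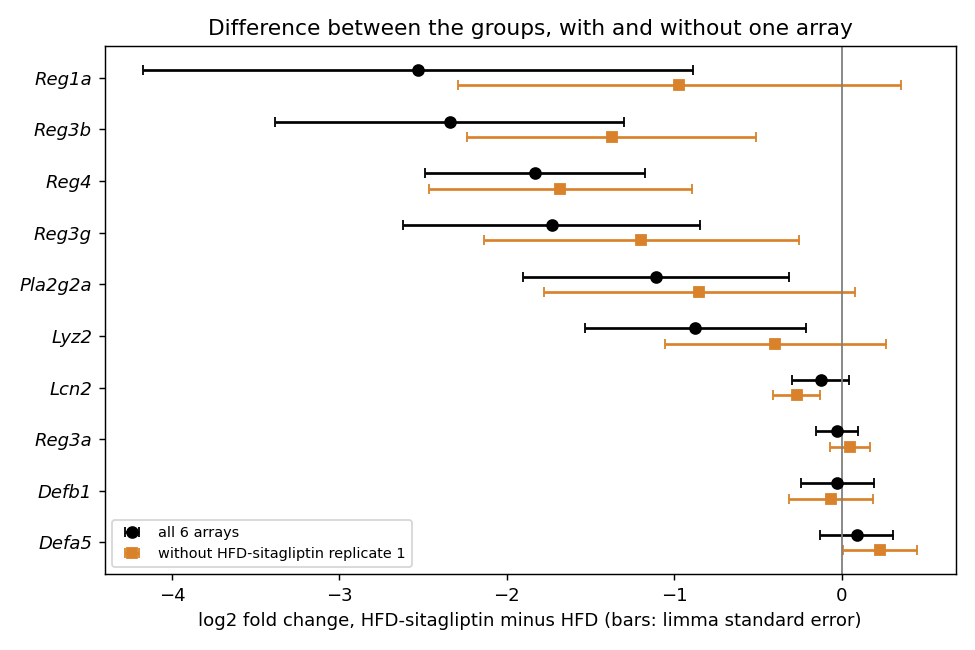
Log2 fold change, HFD-sitagliptin minus HFD (x axis), of the 10 genes from the 6 arrays (black circles) and from the 5 left when HFD-sitagliptin replicate 1 is dropped (orange squares), with limma standard errors as bars. *Reg1a* lies at -2.53 in the full set and at -0.97 without that array, and *Reg4* at -1.83 and -1.68, while *Lcn2*, *Reg3a*, *Defb1* and *Defa5* stay near 0.

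The signals that induce these genes were compared next. Of 23 measured ligands, receptors and mediators, 1 was higher past the threshold, 1 was lower and 21 did not pass. Their median log2 fold change was -0.01. Of all 18166 genes, 128 were higher past the threshold and 237 lower. Among the 23, the higher one was *Il22*, the lymphocyte cytokine that induces Reg3 lectins in mouse epithelium. It had values of 4.89, 4.91 and 5.19 in HFD-sitagliptin arrays, against 4.26, 4.43 and 4.33 in HFD arrays (log2 fold change 0.66, standard error 0.13, limma adjusted p = 0.718). All HFD arrays lay below the background mark and all HFD-sitagliptin arrays above it. Without HFD-sitagliptin replicate 1 its log2 fold change was 0.72 and it passed. Over 8 lymphocyte markers, of which 7 were above background, the mean level was 6.03 to 6.37 in HFD-sitagliptin arrays and 5.80 to 6.13 in HFD arrays, and 0 passed. *Jchain*, the plasma cell joining chain, was the brightest, with a log2 fold change of 0.30, followed by *Cd4* (0.46), *Cd8a* (0.36) and *Cd3e* (0.32). The lower one was *Ifng*, interferon gamma, at 3.09 to 3.66 in HFD-sitagliptin arrays and at 3.81 to 4.16 in HFD arrays, all below background (log2 fold change -0.65, and -0.80 without HFD-sitagliptin replicate 1, which also passed). *Il22ra1*, the epithelial chain of the IL-22 receptor, was at 6.39, 7.85 and 7.70 in HFD-sitagliptin arrays, against 7.77, 8.37 and 7.80 in HFD arrays, and did not pass (log2 fold change -0.67, and -0.21 without HFD-sitagliptin replicate 1). *Stat3* was at 8.30 to 8.69 in HFD-sitagliptin arrays and at 8.43 to 8.67 in HFD arrays. *Socs3*, a Stat3 target that damps the signal, was at 5.13 to 6.08 in HFD-sitagliptin arrays and at 5.45 to 6.23 in HFD arrays. *Nfkbiz*, a nuclear cofactor induced by IL-17 and Toll-like receptors, was at 6.40 to 6.91 in HFD-sitagliptin arrays and at 6.08 to 6.39 in HFD arrays (log2 fold change 0.41, and 0.55 without HFD-sitagliptin replicate 1), with groups that do not overlap, and did not pass in either fit. The share of all genes that were higher without overlap was not counted. *Myd88*, the Toll-like receptor adaptor, had a log2 fold change of -0.01.

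**Figure D4:**
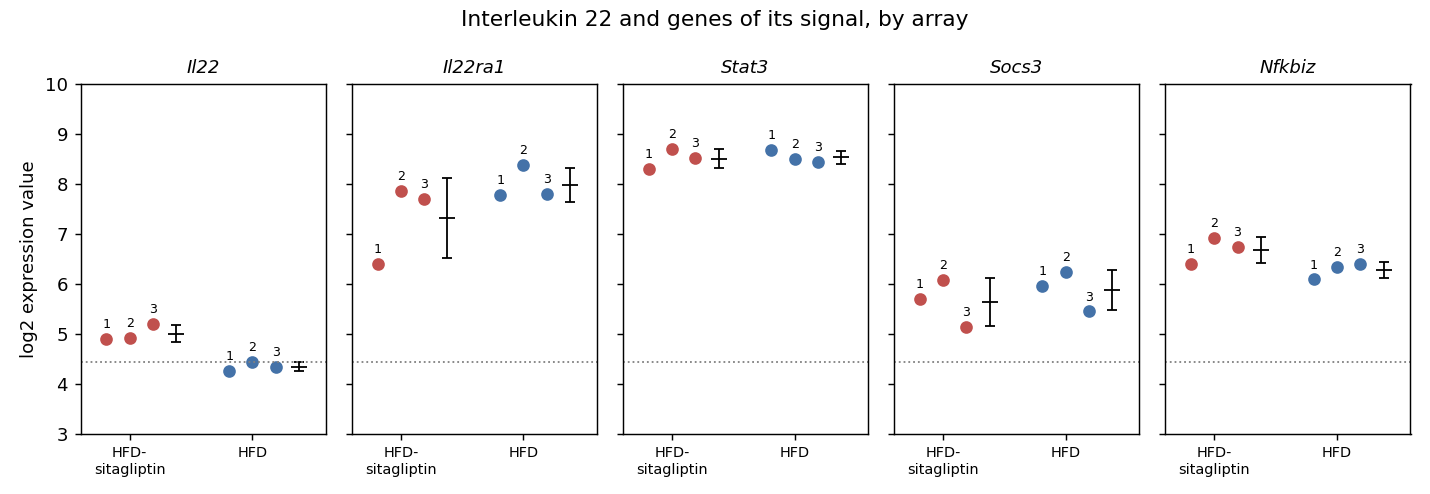
Log2 expression value (y axis, from 3 to 10) of *Il22* and genes of its signal in HFD-sitagliptin (red, left) and HFD (blue, right) pups, 1 point per array with its replicate number; black marks are means with SD (n = 3 each), and the dotted line is the background mark. *Il22* is higher in all 3 HFD-sitagliptin arrays, *Il22ra1* is low in HFD-sitagliptin replicate 1, and the groups overlap for *Stat3* and *Socs3*.

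Of 33 other antimicrobial genes measured, 17 were above background and 0 passed the threshold in limma, where 1 passed with the replicate number as a block. That gene was *Lypd8*, which keeps flagellated bacteria from the mouse colon epithelium, at 10.94 to 12.30 in HFD-sitagliptin arrays and at 10.23 to 11.10 in HFD arrays, highest in HFD-sitagliptin replicate 1 (log2 fold change 0.76, and 0.32 without it). *Slpi*, an antiprotease with antimicrobial action, was at 6.87, 6.20 and 5.99 in HFD-sitagliptin arrays, against 4.20, 6.51 and 4.68 in HFD arrays, and HFD replicate 2 overlapped with the HFD-sitagliptin arrays. *Defa7* was at 5.30 to 5.75 in HFD-sitagliptin arrays and at 4.84 to 5.43 in HFD arrays, a profile unlike that of *Defa6*. The log2 fold change of *Retnlb*, a goblet cell resistin-like protein, was 0.97 over the 6 arrays and 0.26 once HFD-sitagliptin replicate 1 was left out. It was at 6.04 in that array and below the background mark in the other 5, as was its mean level. The median of the 33 genes was 0.09.

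Genes of Paneth cell formation and granule packing did not pass either, with 0 of 29 past the threshold and a median log2 fold change of 0.04. *Xbp1*, the secretory cell transcription factor that Paneth cells of mice need, came closest, at 10.11, 9.66 and 9.96 in HFD-sitagliptin arrays, against 10.85, 10.37 and 10.19 in HFD arrays. The groups do not overlap, and the log2 fold change of -0.57 (limma adjusted p = 0.718) fell short of the fold threshold, and passed it without HFD-sitagliptin replicate 1, at -0.67. *Gfi1*, a factor of the secretory lineage, was at 5.03 to 5.41 in HFD-sitagliptin arrays and at 4.47 to 5.01 in HFD arrays, and did not pass (log2 fold change 0.37). Its groups do not overlap either, and how many of all genes separate upward was not counted. *Ephb3*, which places Paneth cells at the crypt base, had a log2 fold change of 0.37 and *Wnt3*, a Wnt ligand that Paneth cells make in mice, one of 0.32. *Olfm4*, a crypt base gene from the stem cell list, was at 5.72, 9.55 and 8.03 in HFD-sitagliptin arrays, against 9.78, 9.10 and 8.82 in HFD arrays (log2 fold change -1.47, and -0.44 without HFD-sitagliptin replicate 1). None of the 7 stem cell markers passed, and *Smoc2*, *Axin2* and *Rnf43*, the next in brightness, had log2 fold changes of -0.23, -0.30 and 0.12.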

How the data were processed

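Intestinal RNA of 3 HFD-sitagliptin and 3 HFD pups was measured on Affymetrix GeneChip Rat Gene 2.0 ST arrays, and the groups were taken from the sample titles. The authors normalized the scans in GeneSpring, by an algorithm not given in the sources used here, and deposited 1 value per transcript cluster, taken as log2 from its range. Array medians were 4.45 to 4.62. The labels name a mirVana kit for RNA and the paper names TRIzol. Of 36685 clusters, 18511 carry exactly 1 symbol, which gave 18166 genes. The 291 genes with several clusters were read from the brightest. Arrays have no read depth, and their number limits precision. The p-values measure the spread between these pups, and per the paper 1 male pup was taken from each litter.

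Groups were compared in limma 3.58.1 (R 4.3.3) over all genes with Benjamini-Hochberg adjustment, without a filter and after tests on simulated data. After subtraction of group means, same-number arrays correlated at 0.146, 0.284 and 0.148 and the others at -0.240 to 0.020. The numbers were therefore treated as pairs in an alternative fit, on these values alone, since no label or text states a pairing. Other alternatives were moderation, weights, normalization, centring, a dim filter, means of clusters, the methods' t-test, the threshold and leaving out each array. Promoters came from RefSeq GRCr8 and were aligned in Biopython 1.88.

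The genes and lists were chosen with earlier results of these data known. Named were the 10 genes, genes of the pathway lists past the threshold or with the smallest p (up to 4 a list), cell type markers with the highest means (up to 4 a list) and the 3 genes most like *Reg3b*, *Reg4* and *Defa5*. Further genes named beside them, such as *Defa9*, *Mmp7*, *Stat3*, *Socs3*, *Il22ra1*, *Myd88*, *Nfkbiz*, *Olfm4*, *Itln1*, *Lpo*, *Wfdc2*, *Itgam*, *Adgre1* and some region, acinar and neutrophil genes, were chosen after their values were seen.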

Additional observations from a re-analysis of the deposited data

How the results depend on the processing

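The number of arrays limits all values, and single arrays decided calls. The 10 genes had 1 past the study's threshold and all genes 365. With an adjusted p under 0.05 both counts were 0. The methods' t-test gave 0 of the 10 and 158 of all genes, and with arrays centred on their median 2 of the 10 passed, *Reg3b* (log2 fold change -2.40) and *Reg4*. Blocking on the replicate number, 476 of all genes and 1 of the 10, again *Reg4*, passed, and the block changed no call among the 10. The median log2 fold change of the 10 genes, -0.99, was -0.43 with array weights and -1.73 over the 7 genes kept when dim clusters were left out. Dropping single arrays moved it between -1.76 (HFD-sitagliptin replicate 2 dropped) and -0.54 (HFD-sitagliptin replicate 3 dropped), the count of the 10 from 0 to 4 and the count of all genes from 239 (without HFD replicate 1) to 880 (without HFD-sitagliptin replicate 3). *Reg4* lost its call in 6 of 14 alternatives, and *Reg1a*, *Reg3b*, *Reg3g*, *Reg4*, *Lyz2*, *Pla2g2a* and *Lcn2* kept a negative sign in all 14. The causes of these moves were not tested.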

Other observations

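The genes most like *Reg3b*, *Reg4* and *Defa5* over the 6 arrays were sought among genes that span at least 2 log2 units. Over so few arrays high correlations arise among many genes, and they are given as a description. For *Reg3b* these were *Nts*, which encodes the gut peptide neurotensin (r = 0.976, and 0.949 without HFD-sitagliptin replicate 1), *Defa8* (0.961) and *Reg3g* (0.958). *Nts* was at 3.13, 9.08 and 4.41 in HFD-sitagliptin arrays, against 8.01, 8.67 and 8.63 in HFD arrays, so it was low in the same pair of HFD-sitagliptin arrays as *Reg3b*. For *Reg4* they were *Hykk*, a hydroxylysine kinase (0.979), *Ttk*, a mitotic kinase (0.955), and *Spink4* (0.910), each of them highest in HFD replicate 1. For *Defa5*, whose own level was not told from background, they were *Cyp3a9* (0.975), *Pdk4* (0.865) and the olfactory receptor gene *Olr1143* (0.863).

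The same value to 4 decimals recurs on 2 or more arrays for 28.8% of all genes, 40.02% of genes at or below the background mark and 22.8% of those above it. On 4 or more arrays it recurs for 492 genes, *Reg3a* among them. *Reg3a* was the only one of the 10 genes with a recurring value. How the deposited values come to repeat was not tested.

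*Itln1*, an intestinal lectin that binds microbial sugars and is on the Paneth cell list, was at 11.53, 7.49 and 8.78 in HFD-sitagliptin arrays, against 10.05, 8.57 and 9.18 in HFD arrays. It was highest in HFD-sitagliptin replicate 1 and lowest in replicate 2, where *Defa6*, *Defa7*, *Defa8*, *Defa9* and *Defa24* were highest. Its group means were 9.26 in HFD-sitagliptin and 9.27 in HFD arrays, and once HFD-sitagliptin replicate 1 was dropped the log2 fold change was -1.13. *Lpo* and *Wfdc2*, further antimicrobial genes, were at 7.99 and 7.45 in that array and at no more than 4.67 and 5.39 in the other 5.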
